A study of Mus musculus with 15 samples.

Results

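Thoracic perivascular adipose tissue (tPVAT), the fat that surrounds the aorta in the chest, was compared gene by gene between mice with a deletion of Prdm16 in adipocytes and controls. All 8 thoracic libraries were used, out of 15 in the study. The 4 control libraries came from Prdm16flox mice, whose Prdm16 alleles carry loxP sites, and the 4 cKO (conditional knockout) libraries came from Prdm16flox, AdipoQCre+ mice, which carry the same alleles and a Cre recombinase. Every mouse was 11 weeks old. The Cre is named for the adiponectin gene, whose regulatory sequence is active in adipocytes of all fat depots, so the deletion was not limited to the fat around the aorta. Both groups carry the floxed alleles, and neither carries the Cre without them. The labels do not give the sex, the exon between the loxP sites or whether each library is a separate animal, so the p-values below reflect how far these samples spread, and that spread may be technical. The other 7 libraries, from abdominal perivascular fat (aPVAT; 4 control and 3 cKO), enter only the test of the difference between depots at the end.

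PRDM16 is a zinc finger coregulator that binds other transcription factors, among them PPARs, C/EBPs and EBF2, and with them turns on genes of brown and beige adipocytes. With corepressors such as CtBP proteins and the methyltransferase EHMT1 it also keeps genes of white adipocytes and muscle low. Thoracic perivascular fat resembles brown fat: its adipocytes are rich in mitochondria, express the uncoupling protein UCP1 and release factors that act on the tone of the vessel they surround.

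Total counts lay between 55565579 and 68735385 per library. The first principal component, with 42.1% of the variance, separated the genotypes, while the next axes (15.7% and 12.5%) spread the libraries within each group. Genes of the mitochondrial genome took 34.5% ± 1.28 of all counts in controls (34.38%, 33.37%, 36.36% and 34.1% in libraries 1 to 4) and 29.9% ± 2.38 in cKO (30.13%, 26.49%, 31.64% and 31.41%; SD, n = 4 each). The groups did not overlap, and the difference of −4.63 percentage points had an exact two-sided permutation p of 0.0286, the smallest that 4 against 4 libraries can give. The library cKO 2 had the lowest share and the largest TMM factor, 1.097 against 0.944 to 1.016 in the other 7 (TMM is the scaling between libraries). All levels below are TMM-scaled CPM. In this unit the counts of each library are divided by its total count times its TMM factor, and multiplied by a constant shared by all libraries. The scaled totals therefore differ between libraries with their TMM factors. The levels are not divided by transcript length, so they compare libraries, not genes.

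Prdm16 stood at 36.8, 32.6, 36.8 and 43.6 CPM in control libraries 1 to 4 and 17.99, 16.96, 17.9 and 19.03 CPM in cKO libraries 1 to 4. All cKO libraries were lower than all controls, and the level fell by about 1 on the log2 scale (log2 fold change −1.06, SE 0.082, adjusted p = 1.19e-05; ENSMUSG00000039410, chromosome 4, 154316125 to 154636873, minus strand of GRCm38, the mm10 assembly). Adjusted p-values here are from edgeR's quasi-likelihood test over all genes tested, with Benjamini-Hochberg adjustment and a threshold of 0.05. Each SE is the size of the log2 fold change divided by the square root of the F value of that test. It is an approximation, and at low counts it can be smaller than counting error alone. A gene is called where it passes. The count covers the whole gene and the tissue holds cells in which the Cre is not active, so the remaining level does not measure how much of the allele was deleted in adipocytes.

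In the thoracic fat, 3726 of 17983 genes tested were called (20.7%). Of these, 2041 were higher in cKO (11.3% of the genes tested) and 1685 were lower (9.37%). Changes of at least 2-fold were fewer: 264 genes rose this much (1.47%) and 116 fell this much (0.645%). Without a TMM factor the split of the calls moved from 54.8% to 71.4% higher, with a median log2 fold change over all genes of 0.0603 against 0.00274, so directions near 0 rest on the scaling. The libraries of the groups did not overlap for 2350 genes higher in cKO (13.1%) and 2085 lower (11.6%). The largest changes are described among protein-coding genes with a mean log2 CPM of at least 1 whose groups did not overlap. Of these, 8 of the 12 largest rises passed 3 on the log2 scale, and none of the 12 largest falls passed −3.

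**Figure D1:**
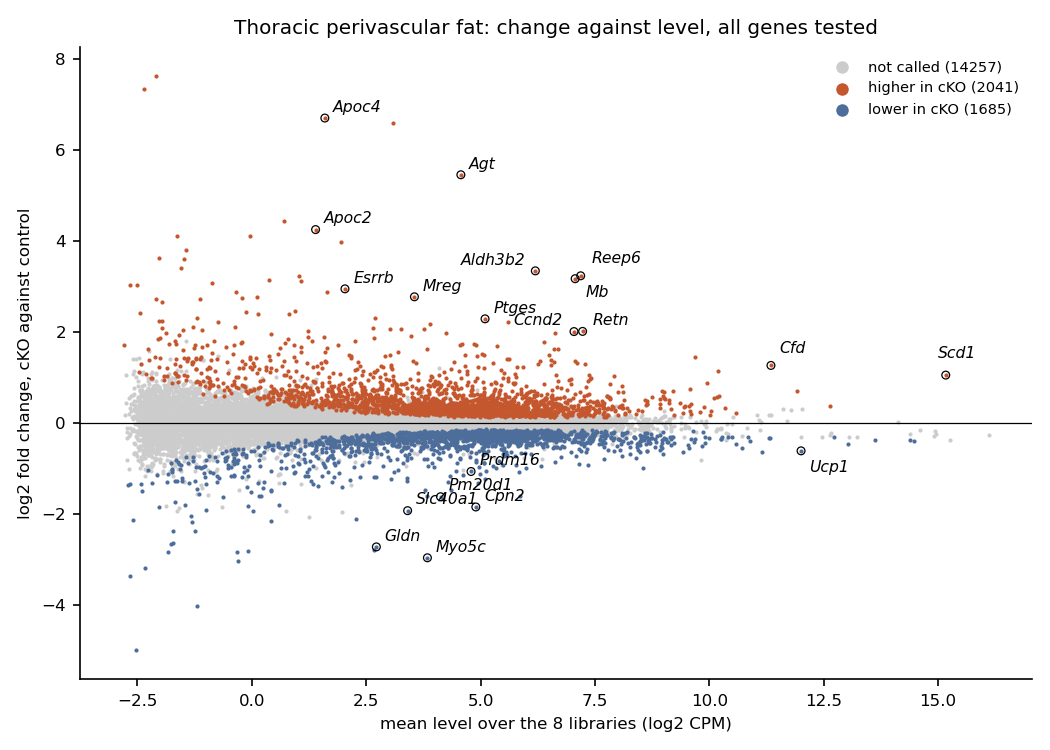
Change against level for the 17983 genes tested in thoracic perivascular fat. The horizontal axis is the mean log2 CPM over the 8 libraries and the vertical axis the log2 fold change of cKO against control; orange points were called higher (2041), blue points lower (1685) and grey points were not called. Among the genes labelled in the plot, Apoc4, Agt and Apoc2 stand highest, above 4, and Myo5c and Gldn lowest, near −3.

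Among the genes kept by those limits, the widest rise was that of Apoc4, which encodes apolipoprotein C-IV, a protein of lipoprotein particles. Its raw counts were 5, 2, 2 and 4 reads in control libraries 1 to 4 and 437, 343, 405 and 391 reads in cKO libraries 1 to 4. Every control library thus held 5 reads or fewer and every cKO library 343 or more. The ratio of scaled counts was 107, with a 95% counting interval of 62.7 to 202 (exact, for counting error alone), and the fitted value, which depends on the prior count at such low counts, was a log2 fold change 6.71, SE 0.23, adjusted p = 5.59e-08. That counting interval is wider than the SE implies, so the SE understates the uncertainty here. Its neighbour Apoc2, whose protein activates lipoprotein lipase, stood at 0.360, 0.223, 0.238 and 0.180 CPM in controls and 4.83, 4.24, 5.43 and 4.93 CPM in cKO (log2 fold change 4.26, SE 0.18, adjusted p = 2.28e-07). The genes follow each other on the minus strand of chromosome 7 (Apoc2 at 19671579 to 19677941 and Apoc4 at 19678083 to 19681479, GRCm38).

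Agt encodes angiotensinogen, the precursor of the vasoconstrictor angiotensin II. It stood at 1.07, 1.30, 0.694 and 1.10 CPM in control libraries 1 to 4 and 45.5, 59.7, 42.8 and 36.8 CPM in cKO libraries 1 to 4. Every control library was near 1 CPM and every cKO library above 36 CPM (log2 fold change 5.46, SE 0.19, adjusted p = 5.59e-08; ENSMUSG00000031980, chromosome 8, 124556534 to 124569706, minus strand). Aldh3b2 and Aldh3b3 encode enzymes that oxidise fatty aldehydes, and lie next to each other on chromosome 19 (3972328 to 3981646 and 3958645 to 3972103). Aldh3b2 stood at 15.5, 12.3, 11.6 and 12.9 CPM in controls and 138, 114, 133 and 149 CPM in cKO (log2 fold change 3.35, SE 0.11, adjusted p = 3.39e-08). Aldh3b3, a gene of far lower counts, rose from 0.725 ± 0.0826 to 5.38 ± 0.312 CPM (2.88, SE 0.11; SD, n = 4 and 4 here and below). The gene beyond them, the aminoacylase gene Acy3, rose as well (14.3 to 31.8 CPM, 1.15, SE 0.10).

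The upstream sequences of 5 genes that rose steeply and of 1 that fell are shown as examples: Apoc4, Apoc2, Agt and Aldh3b3 for their rise, and Mb and Cpn2 because their windows hold a motif match. Of the 24 genes with the largest rise or fall, 19 had a window in the RefSeq table for GRCm38.p6, in 25 windows of 250 bases before an annotated start. Each line gives a gene, the window on GRCm38.p6 with its strand, and its sequence 5′ to 3′; capitals mark a match to a C/EBP motif.
Apoc4, chr7:19681461-19681710, minus strand: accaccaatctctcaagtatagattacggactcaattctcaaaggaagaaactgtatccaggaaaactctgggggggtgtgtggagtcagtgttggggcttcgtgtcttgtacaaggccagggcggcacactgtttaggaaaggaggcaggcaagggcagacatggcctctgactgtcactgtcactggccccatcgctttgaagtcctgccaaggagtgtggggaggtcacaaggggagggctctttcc
Apoc2, chr7:19677942-19678191, minus strand: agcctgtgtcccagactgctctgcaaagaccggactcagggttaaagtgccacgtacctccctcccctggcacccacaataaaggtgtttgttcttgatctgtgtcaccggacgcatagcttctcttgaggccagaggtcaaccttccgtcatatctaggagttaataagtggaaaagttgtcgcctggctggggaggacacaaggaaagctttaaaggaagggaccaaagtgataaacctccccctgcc
Agt, chr8:124569707-124569956, minus strand: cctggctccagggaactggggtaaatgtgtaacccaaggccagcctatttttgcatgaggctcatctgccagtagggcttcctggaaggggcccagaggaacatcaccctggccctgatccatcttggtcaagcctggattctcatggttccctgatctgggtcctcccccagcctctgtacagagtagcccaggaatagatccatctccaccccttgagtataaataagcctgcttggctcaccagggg
Aldh3b3, chr19:3958558-3958807, plus strand: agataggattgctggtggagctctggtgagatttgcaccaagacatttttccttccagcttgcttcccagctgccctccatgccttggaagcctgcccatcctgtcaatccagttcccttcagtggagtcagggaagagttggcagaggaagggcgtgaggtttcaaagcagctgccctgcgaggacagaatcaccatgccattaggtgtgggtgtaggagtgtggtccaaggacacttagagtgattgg
Mb, chr15:77022788-77023037, minus strand: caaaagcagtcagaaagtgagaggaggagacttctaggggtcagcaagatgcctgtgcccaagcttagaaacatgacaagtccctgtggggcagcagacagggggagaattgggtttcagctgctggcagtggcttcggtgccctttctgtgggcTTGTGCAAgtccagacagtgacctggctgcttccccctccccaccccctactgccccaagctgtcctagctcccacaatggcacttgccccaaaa
Cpn2, chr16:30267533-30267782, minus strand: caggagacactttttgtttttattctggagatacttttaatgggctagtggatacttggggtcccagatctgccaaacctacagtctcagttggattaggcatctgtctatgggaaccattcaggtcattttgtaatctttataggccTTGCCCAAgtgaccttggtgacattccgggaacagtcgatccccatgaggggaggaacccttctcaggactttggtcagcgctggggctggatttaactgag

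Motifs of factors that PRDM16 is known to work with, or that act in brown fat, were searched on both strands of these windows: for EBF factors TCCC and GGGA with any 2 bases between them, for C/EBPs TTGC and AA with any 2 bases between them, for estrogen-related receptors TCA followed directly by AGGTCA, and for PPARs 2 copies of AGGTCA with 1 base between them. The last pair of motifs share the letters AGGTCA. Among all 32851 windows of the table, 0.779% held the EBF letters, 9.56% the C/EBP letters, 0.387% those of the estrogen-related receptors and 0.0335% those of PPARs. Of the 19 genes, 5 had a match, each to the C/EBP letters: Mb, which rose, and Acot1, Cabcoco1, Cpn2 and Gmpr, which fell. Over all windows of genes tested, the C/EBP letters stood in 8.83% of windows of genes called higher. The share was 7.78% for windows of genes called lower and 7.69% for those of genes not called. These are shares of windows, whereas 5 of 19 counts genes, some with several windows. The windows printed for Apoc4, Apoc2, Agt and Aldh3b3 held none of these letters. A match describes the letters and is not a measured binding site.

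The rest of the 12 largest rises covered proteins of diverse function. Reep6, which shapes the endoplasmic reticulum, stood at 25.4, 25.2, 30.3 and 30.7 CPM in controls and 257, 171, 299 and 327 CPM in cKO (log2 fold change 3.24, SE 0.18, adjusted p = 1.01e-06). Mb, the oxygen-binding protein myoglobin, stood at 23.6, 22.7, 31.3 and 29.3 CPM in controls and 234, 123, 349.8 and 258 CPM in cKO (log2 fold change 3.18, SE 0.27, adjusted p = 2.01e-05). For both genes the groups lay far apart, and the library cKO 2 had the smallest of the raised values. Mb overlaps Apol6 on the opposite strand, and Apol6 rose too (44.00 to 114 CPM, 1.38, SE 0.063); how strand was treated in counting is not given in the sources used here, so reads of the pair cannot be told apart where they overlap.

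Esrrb encodes an orphan nuclear receptor of the estrogen-related receptor family. It stood at 1.21, 0.611, 1.08 and 0.792 CPM in controls and 5.46, 6.43, 7.88 and 8.79 CPM in cKO (log2 fold change 2.95, SE 0.21, adjusted p = 6.82e-06), with no overlap. Mreg, which encodes melanoregulin, a protein of organelle transport, rose from 2.97 ± 0.343 to 20.4 ± 4.88 CPM (2.78, SE 0.17), and Ptges, the inducible synthase of prostaglandin E2, rose from 11.6 ± 1.602 to 56.7 ± 13.9 CPM (2.30, SE 0.16). Slc15a5, a member of the peptide transporter family, rose from 0.377 ± 0.0720 to 3.58 ± 0.318 CPM (3.24, SE 0.15). Serpina3k, a serine protease inhibitor, was uneven, at 0.329, 0.670, 0.128 and 0.630 CPM in controls and 8.17, 15.00, 2.32 and 2.44 CPM in cKO (log2 fold change 3.97, SE 0.68, adjusted p = 0.00219); reads of this family can be shared among its near-identical members. The cell cycle regulator gene Ccnd2 (cyclin D2), named for its difference between depots, stood at 49.8, 55.98, 54.1 and 48.9 CPM in controls and 198, 207, 219 and 220.0 CPM in cKO (log2 fold change 2.02, SE 0.061, adjusted p = 2.77e-08).

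**Figure D2:**
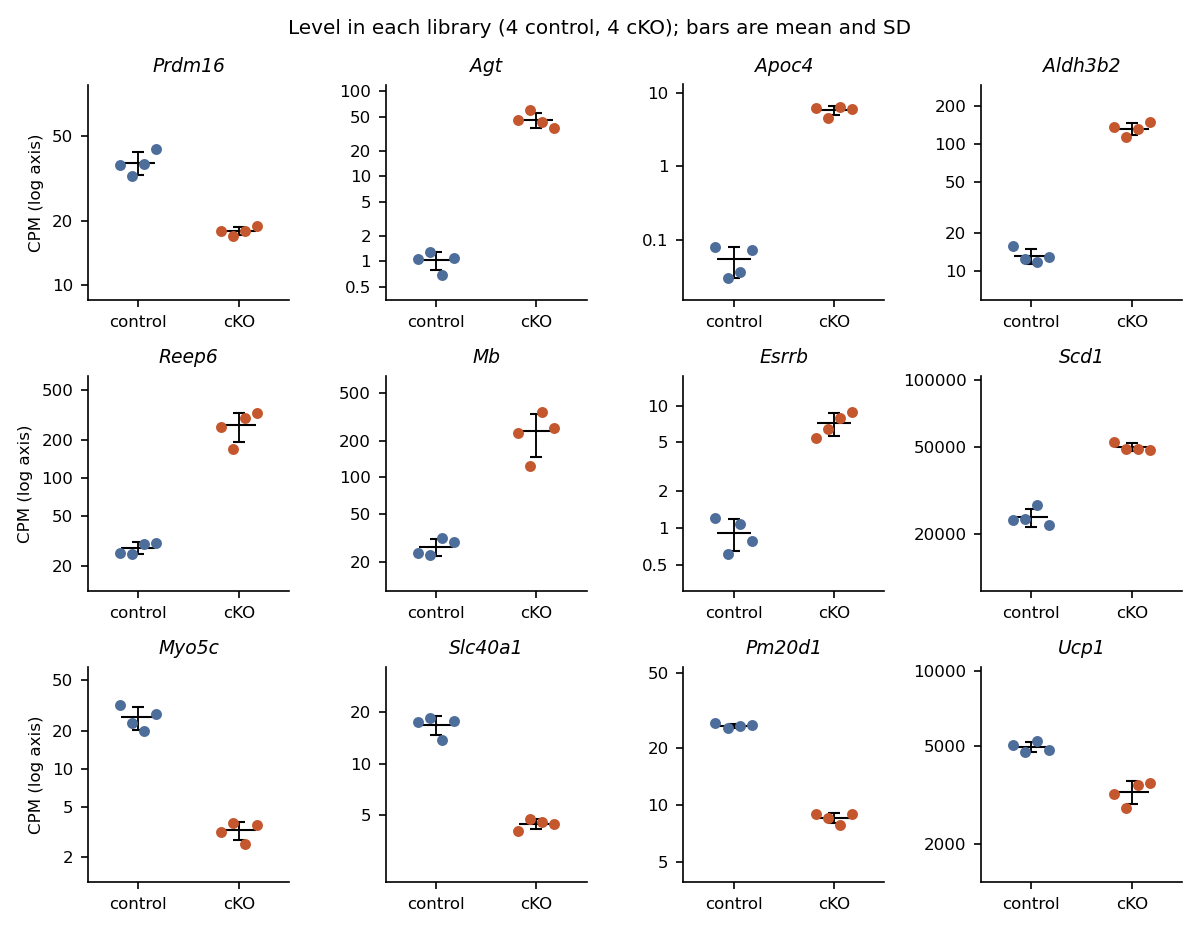
Levels of 12 genes in each thoracic library, in CPM on a log axis that differs between panels. Points are the 4 control and 4 cKO libraries, and the bars give mean and SD. The groups do not overlap in any panel; Agt goes from about 1 CPM to 36.8 or more, while Ucp1 stays at 2803 CPM or more in every cKO library.

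The largest falls were smaller in size. Myo5c, an unconventional myosin that moves vesicles, stood at 32.03, 22.9, 19.8 and 26.8 CPM in controls and 3.18, 3.76, 2.53 and 3.59 CPM in cKO (log2 fold change −2.95, SE 0.16, adjusted p = 9.41e-07). Gldn, which encodes gliomedin, an adhesion protein, stood at 16.7, 8.06, 9.90 and 11.3 CPM in controls and 1.63, 1.81, 1.63 and 1.92 CPM in cKO (log2 fold change −2.72, SE 0.21, adjusted p = 9.92e-06); its antisense gene Gldnos overlaps it. In both genes the lowest control was more than 4 times the highest cKO library. Slc40a1 encodes ferroportin, the iron exporter of cells, and stood at 17.4, 18.5, 13.6 and 17.6 CPM in controls and 4.04, 4.74, 4.54 and 4.44 CPM in cKO (log2 fold change −1.92, SE 0.10, adjusted p = 6.63e-07).

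Cpn2 encodes the regulatory subunit of carboxypeptidase N, which trims kinins and anaphylatoxins, and stood at 51.7, 43.7, 41.5 and 49.3 CPM in controls and 13.9, 10.3, 12.3 and 15.7 CPM in cKO (log2 fold change −1.84, SE 0.12, adjusted p = 3.26e-06). Pm20d1 encodes a secreted enzyme that joins fatty acids to amino acids, and was nearly the same in all libraries of a group, at 27.1, 25.5, 26.2 and 26.5 CPM in controls and 8.97, 8.57, 7.82 and 9.03 CPM in cKO (log2 fold change −1.61, SE 0.060, adjusted p = 8.61e-08). The other 7 named falls lay between −1.60 and −1.33 on the log2 scale. They were the GMP reductase gene Gmpr (87.8 to 28.95 CPM), the carbonic anhydrase gene Car14 (21.3 to 7.05 CPM), the acyl-CoA thioesterase gene Acot1 (20.3 to 7.30 CPM), the mitochondrial malic enzyme gene Me3 (30.3 to 10.9 CPM), Kcp (5.72 to 2.16 CPM), which encodes a modulator of BMP signals, Cabcoco1 (3.90 to 1.52 CPM) and the oxysterol-binding protein gene Osbp2 (3.63 to 1.44 CPM). Acot1 shares much of its sequence with Acot2, and Gmpr and Car14 overlap Atxn1 and Aph1a on the opposite strand.

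Ranked by the gain in CPM rather than by the ratio, the first gene was Scd1, which encodes the desaturase that makes monounsaturated fatty acids. It stood at 23144, 23287, 27007 and 21912 CPM in control libraries 1 to 4 and 52689, 48745, 48873 and 48361 CPM in cKO libraries 1 to 4 (log2 fold change 1.06, SE 0.094, adjusted p = 3.08e-05). It more than doubled in mean, from 23838 CPM in controls to 49667 CPM in cKO. Cfd, which encodes the adipokine and complement protease adipsin, stood at 1416, 1839, 1362 and 1482 CPM in controls and 3535, 4196, 3623 and 3367 CPM in cKO (log2 fold change 1.27, SE 0.11, adjusted p = 1.82e-05). Further large gains in CPM were those of the carbonic anhydrase gene Car3 (2951 to 4801 CPM), the fatty acid binding protein gene Fabp4 (5526 to 7235 CPM), Me1 (727 to 1615 CPM), Cyp2e1 (440.0 to 1215 CPM), the pyruvate carboxylase gene Pcx (698 to 1281 CPM), the cysteine dioxygenase gene Cdo1 (935 to 1425 CPM), the fatty acid elongase gene Elovl6 (928 to 1385 CPM) and the phosphatidylcholine enzyme gene Chpt1 (885 to 1309 CPM). With all 15 libraries in the fit the call of Elovl6 was lost (adjusted p = 0.280).

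Ucp1 lost the most reads among nuclear genes that are not copies of mitochondrial DNA. It stood at 5037, 4719, 5236 and 4828 CPM in control libraries 1 to 4 and 3202, 2803, 3484 and 3539.7 CPM in cKO libraries 1 to 4 (log2 fold change −0.61, SE 0.083, adjusted p = 0.000578; ENSMUSG00000031710, chromosome 8, 83290352 to 83298452, plus strand). The groups did not overlap, and the cKO mean was 65.7% of the control mean. With the abdominal libraries in the same fit the log2 fold change was −0.62 and the call was lost (adjusted p = 0.508). Also among the largest losses in CPM were the glycerol-3-phosphate dehydrogenase gene Gpd1 (7511 to 6104 CPM, −0.30, adjusted p = 0.0318), the oxoglutarate dehydrogenase gene Ogdh (1999.9 to 1369 CPM), the ATP synthase genes Atp5b (2876 to 2282 CPM) and Atp5a1 (2042 to 1652 CPM) and the gluconeogenic gene Pck1 (1760.3 to 1283 CPM). The call of Gpd1 was lost without control 1, control 4, cKO 1 or cKO 3 and with all 15 libraries in the fit (adjusted p = 0.0571 to 0.114). The predicted genes Gm10925, Gm28437 and Gm13341 also fell (−0.36, −0.45 and −0.38); they are nuclear copies of mitochondrial DNA, and their reads cannot be told apart from those of the mitochondrial genome. Gm10925 was not called without control 1, control 3 or cKO 1 (adjusted p = 0.0520 to 0.0634).

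The genes were then read by role, in 39 lists. Over all genes tested, 11.3% were called higher and 9.37% lower, the background for each count below. Most partners of PRDM16 did not pass the test. Of 22 genes of its complex, all tested, there were 0 higher, 5 lower and 17 not called, with a median log2 fold change of −0.076 against 0.00274 over all genes. The share called in either direction, 5 of 22, is close to the background of 20.7%. All 5 were falls, 22.7% of the list against a background of 9.37% for falls. They include Prdm16 itself, the gene deleted by design. Besides Prdm16 itself, the nuclear receptor gene Ppara (79.9 to 60.95 CPM, −0.39, SE 0.061), the coactivator gene Ppargc1b (40.99 to 25.3 CPM, −0.69, SE 0.11) and the repressor gene Gtf2ird1 (40.4 to 28.9 CPM, −0.49, SE 0.092) were among the 5 that fell. Ebf2, a factor that marks brown preadipocytes, was not called (47.4, 45.7, 47.3 and 53.7 CPM in controls and 39.3, 39.02, 47.7 and 45.1 CPM in cKO; −0.18, adjusted p = 0.123), nor was Ppargc1a (0.21, adjusted p = 0.270). Their libraries overlapped between the groups.

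Genes of thermogenic adipocytes moved in both directions. Of 34 listed, 32 were tested (Tnfrsf9 and Zic1 had too few counts): 3 higher, 14 lower and 15 not called, with a median of −0.30. The share lower, 14 of 32, stands beside a background of 9.37%. Otop1, a proton channel gene of brown fat, fell (185, 200.2, 195 and 193 CPM in controls and 114, 119, 128 and 136 CPM in cKO; −0.64, SE 0.061), as did the purine enzyme gene Impdh1 (84.5 to 43.03 CPM, −0.97, SE 0.092) and Cpn2. Cox8b, the muscle and brown fat isoform of a cytochrome oxidase subunit, fell too (420.3, 428, 443 and 402 CPM in controls and 246, 204, 285 and 263 CPM in cKO; log2 fold change −0.76, SE 0.090, adjusted p = 0.000213).

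Other genes used to mark brown fat were not called. Cidea, a lipid droplet protein gene, stood at 1204, 1192, 1157 and 1239 CPM in controls and 1115, 1021, 1035 and 1094 CPM in cKO (−0.17, adjusted p = 0.0507): no library overlapped, the size was small, and the gene lay next to the threshold, which it passed in 6 of the other settings. The deiodinase gene Dio2 (−0.21, adjusted p = 0.461) and the elongase gene Elovl3 (0.13, adjusted p = 0.355) were not called, and their libraries overlapped. Bmp8b, which encodes a BMP ligand secreted by brown adipocytes, went the other way at 0.157, 0.134, 0.0731 and 0.180 CPM in controls and 3.58, 1.89, 4.31 and 2.26 CPM in cKO (log2 fold change 4.44, SE 0.35, adjusted p = 1.32e-05). The 3 called rises of this list became 1 without control 4 and 5 without cKO 2.

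Of the genes that are higher in white than in brown adipocytes, about as many rose as did not. All 23 of the list were tested: 12 higher, 2 lower and 9 not called, with a median of 0.62 and a range of −0.95 to 5.46; without control 1 the median was 0.89. The 12 rises are 52.2% of the list against a background of 11.3%. Besides Agt, those with the smallest p were Psat1, a serine synthesis enzyme gene (7.22, 7.66, 8.84 and 6.75 CPM in controls and 28.2, 33.5, 29.9 and 28.5 CPM in cKO; 1.98, SE 0.089), Cyp2e1, a cytochrome P450 gene (425, 452, 452 and 430.4 CPM in controls and 1246, 1103, 1116 and 1395 CPM in cKO; 1.47, SE 0.078), and Hoxc8, a homeobox gene of body position (19.6, 18.04, 22.4 and 21.1 CPM in controls and 49.6, 45.96, 43.9 and 47.7 CPM in cKO; 1.21, SE 0.071). The list was drawn up with results of these data known, so its direction is not independent evidence.

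Most nuclear genes of the respiratory chain were lower by small, even amounts. Of 86 listed genes of complexes I to V, 85 were tested, and 73 were lower and 2 higher. Falls make up 9.37% of all genes tested and rises 11.3%. By complex, the list of complex I (NADH dehydrogenase, 38 genes) had 0 higher, 34 lower and 4 not called and a median of −0.35. All 4 genes of complex II and all 9 of complex III fell (medians −0.44 and −0.40). Complex IV (cytochrome oxidase, 16 tested) had 14 lower and none higher (median −0.34), and complex V (ATP synthase, 18 tested) had 2 higher, 12 lower and 4 not called (median −0.30).

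The individual values were narrow. Sdhd of complex II stood at 437, 426, 415 and 394 CPM in controls and 284, 262, 282 and 289 CPM in cKO (log2 fold change −0.58, SE 0.053, adjusted p = 3.86e-05). Cyc1 of complex III stood at 486, 481, 490.4 and 456 CPM in controls and 315, 276, 334 and 333 CPM in cKO (log2 fold change −0.60, SE 0.066, adjusted p = 0.000124), and Ndufs7 of complex I at 116, 118, 113 and 111 CPM in controls and 78.6, 72.5, 85.1 and 82.9 CPM in cKO (log2 fold change −0.52, SE 0.056, adjusted p = 0.000112). In each the highest cKO library was below the lowest control, although no gene of the 85 changed by more than 0.763 on the log2 scale. The 2 that rose were Atp5g3 (122 to 159.7 CPM, 0.39, SE 0.050), which encodes 1 of the copies of the membrane ring subunit, and Atpif1 (10.99 to 14.5 CPM, 0.40, SE 0.060), which encodes the inhibitor of the synthase.

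The protein genes of the mitochondrial genome leaned the same way with a wider spread. All 13 had a log2 fold change below 0 (median −0.28) and 3 were called lower. The count depends on the fit: it was 8 with DESeq2, with library weights or without a TMM factor, and 1 without control 1, control 3 or cKO 1. mt-Co3, a cytochrome oxidase gene, was the clearest (25960.5, 24842, 28115 and 23784 CPM in controls and 20039, 17323, 20717 and 20056 CPM in cKO; log2 fold change −0.39, SE 0.091, adjusted p = 0.0109).

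Other mitochondrial functions differed in how many genes moved. Falls were 94.1% of the tricarboxylic acid cycle genes, 70.8% of those of fatty acid oxidation and 53.8% of those of coenzyme Q synthesis. The background for falls is 9.37%. In the tricarboxylic acid cycle 16 of 17 genes fell and none rose (median −0.43). Dlst, a subunit gene of oxoglutarate dehydrogenase, stood at 921, 859, 885 and 897 CPM in controls and 602, 527, 627 and 680.1 CPM in cKO (log2 fold change −0.55, SE 0.074, adjusted p = 0.000534). All its cKO libraries were below all controls. In mitochondrial fatty acid oxidation 17 of 24 fell and none rose (median −0.38), among them the isomerase genes Eci1 (299.8, 290.1, 286 and 292 CPM in controls and 193, 176, 195 and 205 CPM in cKO; −0.60, SE 0.054) and Ech1 (619 to 388 CPM, −0.67, SE 0.071) and the electron transfer gene Etfb (451 to 332 CPM, −0.44, SE 0.051). In coenzyme Q synthesis 7 of 13 fell and none rose; Coq8a, a kinase-like regulator gene of that pathway, was the widest (581, 521, 351 and 521 CPM in controls and 255, 302, 229 and 215 CPM in cKO; −0.98, SE 0.15).

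The machinery that builds mitochondria changed less. Falls were 31.6% of the tested genes of the mitochondrial ribosome and 24.2% of those of import, against a background of 9.37%. Of 78 listed genes of the mitochondrial ribosome 76 were tested, with 1 higher, 24 lower and 51 not called and a median of −0.11. The count of falls was 14 without control 1 and 14 without a TMM factor. Mrpl9 fell (55.3 to 40.9 CPM, −0.44, SE 0.052), and Mrps6 was the gene that rose (17.8 to 23.6 CPM, 0.41, SE 0.062). Of 33 tested genes of import and chaperones 8 were lower and none higher, and 4 or 5 were lower without any of controls 1, 2 and 4 and cKO 1 and 2, and 2 without a TMM factor. Beside all of these stands the lower mitochondrial share of counts given above. With the mitochondrial genome left out before scaling, 3743 genes were called in all, and the respiratory complexes I to V had 73 lower and 2 higher.

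Calls in glycolysis and branched-chain amino acid breakdown were mostly falls. Falls were 33.3% and 34.8% of these lists against a background of 9.37%, and rises 3.70% and 4.35% against 11.3%. Of 27 genes of glucose uptake and glycolysis there were 1 higher, 9 lower and 17 not called (median −0.12). The lactate dehydrogenase gene Ldhb fell (337, 313, 303 and 317 CPM in controls and 200.1, 181, 238 and 226 CPM in cKO; −0.59, SE 0.081), and so did the enolase gene Eno1 (286 to 226 CPM, −0.34, SE 0.047) and Pgk1 (68.2 to 50.8 CPM, −0.43, SE 0.060). In branched-chain amino acid breakdown 8 of 23 fell, with the dehydrogenase gene Bckdha (315 to 239 CPM, −0.40, SE 0.056) and Acad8 (39.6 to 28.4 CPM, −0.48, SE 0.056) among them. Bcat2, the mitochondrial aminotransferase gene that starts the pathway, rose (84.00, 79.2, 69.8 and 89.2 CPM in controls and 136, 139, 132 and 140.3 CPM in cKO; log2 fold change 0.77, SE 0.069, adjusted p = 3.58e-05). Without cKO 2 there were 3 rises in each of these lists.

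**Figure D3:**
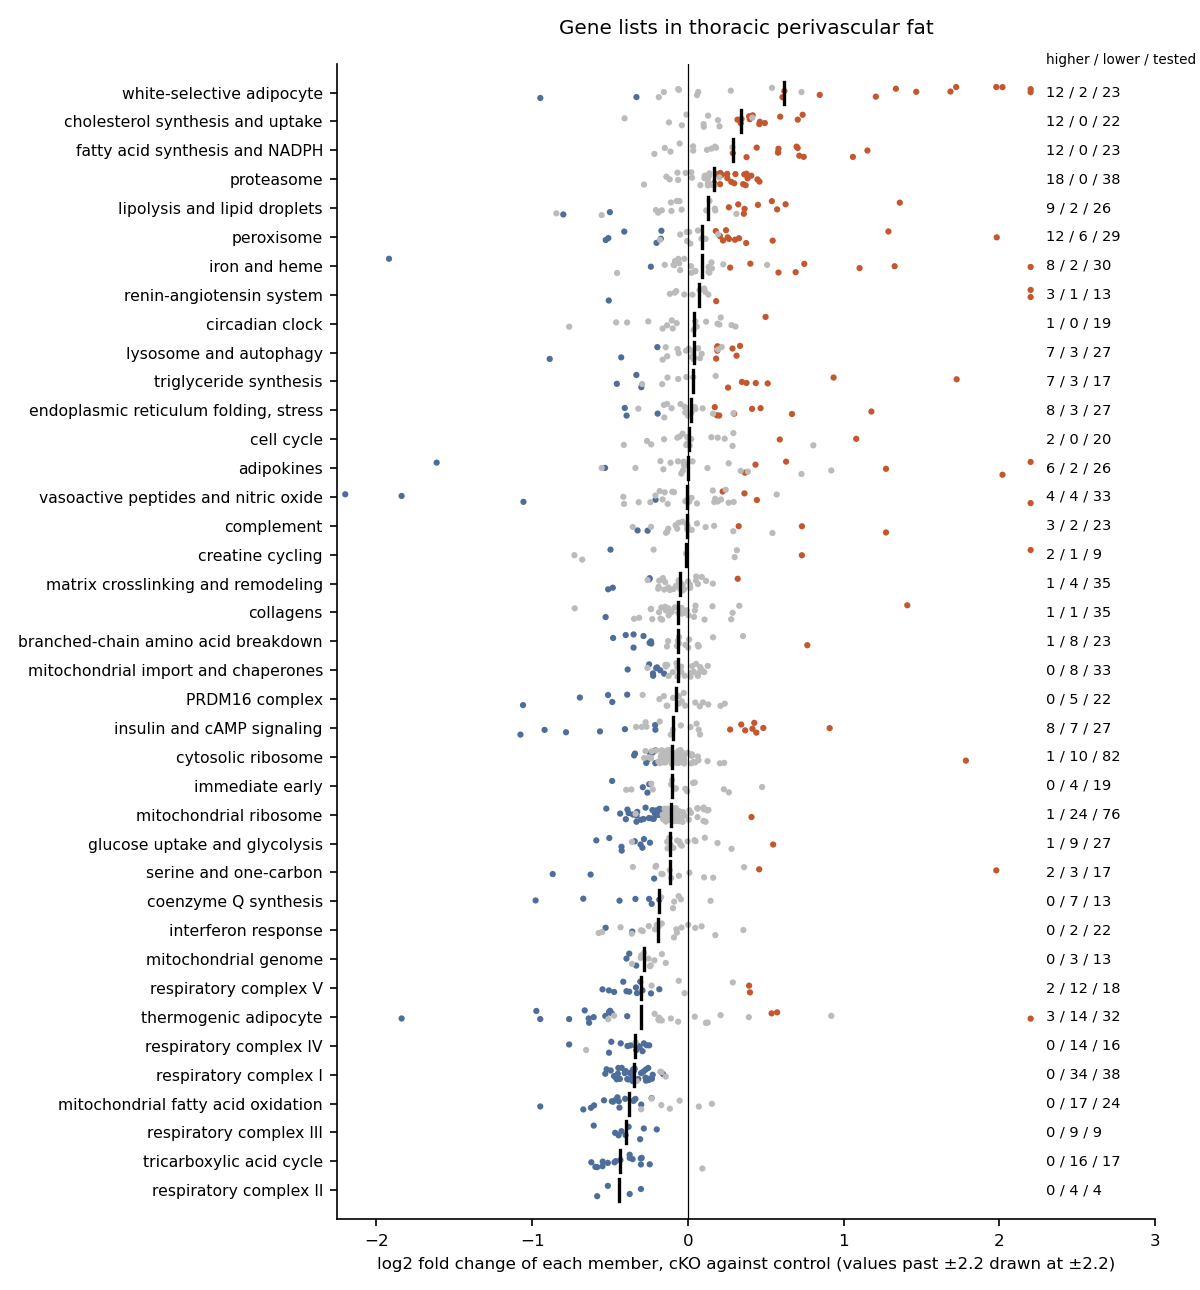
Log2 fold change, cKO against control, of each tested member of 39 gene lists, sorted by the median (black bar). Orange members were called higher, blue lower and grey not called, and the numbers at the right give higher, lower and tested. The complexes of the respiratory chain, the tricarboxylic acid cycle and fatty acid oxidation lie between −0.30 and −0.44 in median, and the white-selective list has the highest median, 0.62.

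Calls in fatty acid and cholesterol synthesis were all rises. Of 23 genes of fatty acid synthesis and its NADPH supply, 12 rose and none fell (52.2% against a background of 11.3%; median 0.29). Me1, the cytosolic malic enzyme that makes NADPH, stood at 664, 756, 765 and 722 CPM in controls and 1730.2, 1652, 1690.0 and 1389 CPM in cKO (log2 fold change 1.15, SE 0.080, adjusted p = 4.96e-06). The pentose phosphate enzymes G6pdx (194, 197, 188 and 204 CPM in controls and 336, 315, 328 and 292 CPM in cKO; 0.70, SE 0.056) and Pgd (448 to 729.8 CPM, 0.70, SE 0.075) rose with it. Cholesterol synthesis and uptake had 12 of 22 tested genes higher and none lower (median 0.34): the desaturase gene Sc5d stood at 85.2, 83.6, 96.6 and 88.2 CPM in controls and 145, 148, 148 and 148 CPM in cKO (0.74, SE 0.053), and Cyp51 (54.9 to 89.4 CPM, 0.70, SE 0.093) and Nsdhl (66.6 to 93.7 CPM, 0.49, SE 0.067), both of the late sterol steps, rose as well.

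Where a list had no call in a direction in edgeR, the counts at an unadjusted p under 0.05 in edgeR and at an adjusted p in DESeq2 were as follows. For genes higher they were 2 and 0 in the PRDM16 complex, 0 and 0 in the mitochondrial genome, 0 and 0 in mitochondrial import, 0 and 0 in complexes I to IV, 0 and 0 in the tricarboxylic acid cycle, 0 and 0 in fatty acid oxidation and 0 and 0 in coenzyme Q synthesis. In the response lists described below, the counts for genes higher were 0 and 0 for interferon and 1 and 1 for immediate early genes. For genes lower they were 2 and 1 in fatty acid synthesis, 2 and 1 in cholesterol synthesis and 0 and 0 in the proteasome. The clock and cell cycle lists had 0 and 0 genes lower each. Without cKO 1 there was 1 rise in the PRDM16 complex, without cKO 2 there was 1 in mitochondrial import, without cKO 4 there was 1 fall in fatty acid synthesis, and without control 2, control 3 or cKO 1 there was 1 fall in cholesterol synthesis.

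Storage and release of triglyceride were less uniform. Rises were 41.2% of the synthesis list and 34.6% of the lipolysis list against a background of 11.3%. Falls were 17.6% and 7.69% against 9.37%. Of 17 genes of triglyceride synthesis there were 7 higher, 3 lower and 7 not called (median 0.034). The acyltransferase gene Gpat3 stood at 12.1, 16.03, 15.2 and 11.9 CPM in controls and 39.6, 49.7, 47.4 and 45.8 CPM in cKO (log2 fold change 1.73, SE 0.11, adjusted p = 2.34e-06), and Dgat1, which adds the last acyl chain, rose (176 to 238 CPM, 0.44, SE 0.050), while Agpat3 fell (473 to 376 CPM, −0.33, SE 0.048). Of 26 genes of lipolysis and lipid droplets there were 9 higher, 2 lower and 15 not called. The 2 falls became 1 without control 2, control 3, cKO 1 or cKO 3. The droplet coat genes Plin4 (428 to 622 CPM, 0.54, SE 0.056), Plin2 (554 to 757 CPM, 0.45, SE 0.068) and Plin1 (611 to 783 CPM, 0.36, SE 0.061) and the endothelial lipase gene Lipg (6.39 to 16.3 CPM, 1.36, SE 0.15) rose.

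Of 29 peroxisomal genes 12 were higher (41.4% against a background of 11.3%) and 6 lower (20.7% against 9.37%). Acaa1b, a thiolase gene of peroxisomal fatty acid oxidation, stood at 33.4, 42.5, 45.2 and 38.8 CPM in controls and 170.2, 138, 136 and 189 CPM in cKO (log2 fold change 1.98, SE 0.12, adjusted p = 2.23e-06). Abcd2, which carries very long chain fatty acids into the peroxisome, stood at 56.6, 50.6, 54.6 and 55.6 CPM in controls and 121, 138, 138 and 133 CPM in cKO (log2 fold change 1.29, SE 0.058, adjusted p = 2.64e-07), and Scp2, a lipid transfer protein gene, rose (392 to 572 CPM, 0.54, SE 0.049). Pex6, which recycles the import receptor, fell (74.8 to 51.9 CPM, −0.53, SE 0.057). The 12 rises became 7 without cKO 3 or cKO 4, and the 6 falls became 3 without control 1 or cKO 2.

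Genes of hormone and cAMP signaling moved in both directions: of 27 genes of insulin and cAMP signaling there were 8 higher, 7 lower and 12 not called. The rises were 29.6% of the list against a background of 11.3%, and the falls 25.9% against 9.37%. Gnas, which encodes the stimulatory G protein alpha subunit, fell (218, 188, 209.8 and 234 CPM in controls and 103, 97.05, 121 and 128 CPM in cKO; log2 fold change −0.92, SE 0.094, adjusted p = 8.36e-05), and so did Irs2, an adaptor gene of the insulin receptor (17.9 to 10.4 CPM, −0.78, SE 0.10). The inhibitory subunit gene Gnai1 (45.02 to 59.99 CPM, 0.41, SE 0.048) and the soluble adenylyl cyclase gene Adcy10 (11.6 to 21.7 CPM, 0.91, SE 0.099) rose.

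Secreted factors of fat included several of the wider changes. Of 27 adipokine genes 26 were tested (Itln1 was not), with 6 higher, 2 lower and 18 not called. The background is 11.3% for rises and 9.37% for falls. Retn, which encodes resistin, stood at 60.6, 64.9, 53.3 and 58.6 CPM in controls and 256, 296, 212 and 199 CPM in cKO (log2 fold change 2.02, SE 0.12, adjusted p = 1.56e-06). Adipoq, the adiponectin gene, rose by less (651, 702, 642 and 655 CPM in controls and 854, 984, 842 and 897 CPM in cKO; 0.43, SE 0.063). Lep, the leptin gene, was not called (44.1, 11.2, 15.00 and 20.4 CPM in controls and 46.5, 26.1, 35.5 and 42.5 CPM in cKO; 0.73, adjusted p = 0.180); its control libraries spread nearly 4-fold, and without control 1 it passed (1.28, adjusted p = 0.00483). In the complement list Cfd led 3 rises among 23 genes tested, with 2 falls, a share close to the background of 20.7%; Masp1, a protease gene of the lectin pathway, was another (0.748 to 1.25 CPM, 0.73, SE 0.17). The 2 falls became 0 without control 1 or cKO 3 and 4 without cKO 2.

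Genes whose products act on vessel tone changed singly rather than as a list. Of 13 tested genes of the renin-angiotensin system (Agtr1b, Agtr2, Mas1 and Ctsg were not tested) there were 3 higher, 1 lower and 9 not called, and the median was 0.074. The rises were 23.1% against a background of 11.3% and the falls 7.69% against 9.37%, on few genes. With Agt rose Enpep, the aminopeptidase that converts angiotensin II to angiotensin III (17.8, 19.1, 14.5 and 17.2 CPM in controls and 76.5, 98.4, 85.1 and 59.5 CPM in cKO; log2 fold change 2.22, SE 0.14, adjusted p = 2.67e-06). Agtrap, whose protein binds the angiotensin receptor, fell (18.2 to 12.8 CPM, −0.51, SE 0.058). Among 33 tested genes of other vasoactive peptides and nitric oxide there were 4 higher, 4 lower and 25 not called, close to the background of 20.7%. Kng2, a kininogen gene and thus a source of kinins, fell (52.5, 44.5, 49.2 and 42.3 CPM in controls and 21.9, 15.4, 29.1 and 24.3 CPM in cKO; log2 fold change −1.06, SE 0.16, adjusted p = 0.000876), beside the fall of Cpn2 and the rise of Ptges.

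Iron genes held the extremes already described, Mb and Slc40a1. Of 30 genes there were 8 higher, 2 lower and 20 not called (26.7% and 6.67% against backgrounds of 11.3% and 9.37%). Heph, which encodes the ferroxidase hephaestin that works with ferroportin, rose (8.45, 7.91, 7.42 and 7.38 CPM in controls and 17.00, 18.05, 16.1 and 15.8 CPM in cKO; log2 fold change 1.10, SE 0.070, adjusted p = 2.53e-06), and Trf, the transferrin gene, rose (5.94, 8.27, 7.34 and 5.90 CPM in controls and 18.2, 20.7, 13.5 and 16.4 CPM in cKO; 1.33, SE 0.14). The falls of this list became 1 without control 2, control 4, cKO 1 or cKO 4. Of 9 creatine genes 2 rose and 1 fell: Slc16a12, a creatine transporter gene, stood at 0.517, 0.536, 0.713 and 0.504 CPM in controls and 3.21, 3.10, 3.29 and 2.98 CPM in cKO (2.47, SE 0.14), the phosphatase gene Alpl rose (21.1 to 35.01 CPM, 0.73, SE 0.055) and the creatine importer gene Slc6a8 fell (22.3 to 15.8 CPM, −0.50, SE 0.054). There were 2 falls among the creatine genes without control 3, cKO 2 or cKO 3. Beside the same backgrounds, 22.2% of the creatine genes rose and 11.1% fell, on few genes. For the one-carbon genes the shares were 11.8% and 17.6%. In serine and one-carbon metabolism 2 of 17 rose and 3 fell; next to the rise of Psat1 stood falls of Psph (21.8 to 14.1 CPM, −0.62, SE 0.091), which takes the next step to serine, and of Shmt1 (19.7 to 10.8 CPM, −0.87, SE 0.11).

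The proteasome genes that were called were all higher in cKO. Of 38 proteasome genes tested 18 rose and none fell (47.4% against a background of 11.3%; median 0.17), each by a small amount: Psmd12, a lid subunit gene, stood at 53.7, 52.3, 53.8 and 50.6 CPM in controls and 72.04, 70.4, 73.6 and 73.2 CPM in cKO (log2 fold change 0.46, SE 0.043, adjusted p = 4.42e-05), and Psmc6 (0.37), Psmc1 (0.36) and Psma1 (0.35) were similar. Of 27 genes of folding and stress in the endoplasmic reticulum there were 8 higher, 3 lower and 16 not called. The rises were 29.6% of the list against a background of 11.3%, and the falls 11.1% against 9.37%. The 3 falls became 0 without control 1 and 1 without control 4 or cKO 1. Qsox1, an enzyme gene of disulfide formation, stood at 25.95, 28.9, 27.4 and 24.6 CPM in controls and 62.9, 61.7, 57.7 and 59.6 CPM in cKO (log2 fold change 1.18, SE 0.059, adjusted p = 4.60e-07), and the stress regulator gene Xbp1 (55.5 to 76.7 CPM, 0.47, SE 0.047) and the cochaperone gene Dnajb9 (49.6 to 78.7 CPM, 0.67, SE 0.090) rose. Of 27 lysosomal genes there were 7 higher, 3 lower and 17 not called, with 4 higher when any of controls 1, 3 and 4 and cKO 1 and 3 was left out. With all libraries the rises were 25.9% and the falls 11.1% of this list. The protease gene Ctsz fell (185, 165, 188 and 199 CPM in controls and 97.9, 91.4, 109.7 and 100.1 CPM in cKO, −0.89, SE 0.071). Of 82 genes of the cytosolic ribosome 10 fell and 1 rose, in both directions together a share below the background of 20.7%. The falls were 12.2% of the list against a background of 9.37% for falls. Their number was 16 with DESeq2 and 3 without a TMM factor.

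Few genes of the matrix and the response lists passed the test. Of 35 collagen genes tested Col5a3 rose (26.2, 29.00, 19.8 and 29.04 CPM in controls and 65.2, 92.4, 70.2 and 48.5 CPM in cKO; 1.41, SE 0.18) and Col23a1 fell (5.92 to 4.10 CPM, −0.53, SE 0.093), and 33 were not called; there were 3 rises without control 2, 5 falls without control 4 and 3 falls without cKO 2. Of 35 genes of matrix crosslinking and remodeling 1 rose and 4 fell, with the crosslinking enzyme gene Loxl1 among the falls (81.4 to 58.3 CPM, −0.48, SE 0.082). The rise was lost without control 3 or control 4. Of 22 interferon response genes 2 fell, Ifi27 (404 to 279.9 CPM, −0.53, SE 0.054) and Rsad2 (10.4 to 8.14 CPM, −0.36, adjusted p = 0.0176), the latter not called without control 4 (adjusted p = 0.0533); there were 5 falls without control 1. Of 19 clock genes 1 rose, Rora (0.50, adjusted p = 0.0171), and of 20 cell cycle genes 2 rose, Mki67 (0.59, adjusted p = 0.0206) and Bub1 (1.08, adjusted p = 0.0354); Rora was not called without control 4 or cKO 1 (adjusted p = 0.0530 to 0.0538), Mki67 without control 4, cKO 1 or cKO 3 (adjusted p = 0.0520 to 0.0580), and Bub1 without any library but control 1 or cKO 2 (adjusted p = 0.0544 to 0.0956). Bub1 was also lost with DESeq2 (adjusted p = 0.0908) and without the filter on low counts (adjusted p = 0.0800). With all 15 libraries in the fit Rora, Mki67 and Bub1 were all lost (adjusted p = 0.146, 0.192 and 0.179), as was Rsad2 (adjusted p = 0.0603). Of 19 immediate early genes 4 fell, Klf2 (−0.29, adjusted p = 0.00412), Zfp36 (−0.25, adjusted p = 0.0177), Btg2 (−0.26, adjusted p = 0.0195) and Nr4a2 (−0.49, adjusted p = 0.0222), and 2 without cKO 1, where Zfp36 and Btg2 were lost (adjusted p = 0.0576 and 0.0508). Btg2 was also lost without control 1 (adjusted p = 0.0519), and Nr4a2 without control 1 or cKO 4 (adjusted p = 0.0600 to 0.0609). Klf2, Zfp36 and Btg2 were lost with all 15 libraries in the fit (adjusted p = 0.0688, 0.105 and 0.107), and Zfp36 and Btg2 without a TMM factor (adjusted p = 0.126 and 0.163). In both directions together, the shares of these lists lie near or below the background of 20.7%. The immediate early calls in edgeR were all falls, 21.1% of that list against a background of 9.37% for falls. DESeq2 also called 1 rise in that list.

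Markers of other cells that the tissue could hold were measured beside the changes. In bulk tissue, fewer cells of a type and less RNA per cell cannot be told apart. Of 10 markers of adipocytes of any kind 4 rose and none fell, and their summed level was 13010.2 to 14091 CPM in control libraries and 15841 to 17391 CPM in cKO libraries. Of 8 brown adipocyte markers 3 fell and 5 were not called, with log2 fold changes from −0.76 to 0.21. Their summed level was 7272 to 7795 CPM in control libraries and 4696 to 5716 CPM in cKO libraries. Most of that sum is Ucp1, with a mean of 4955 CPM in controls and 3257 CPM in cKO. Ucp1 was at 2803 CPM or more and Cidea at 1021 CPM or more in every library, so the defining markers of brown fat were present in all 8.

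Some markers of cells of the vessel wall were lower in cKO, at shares above the background of 9.37%. Of 10 endothelial markers 6 fell and none rose (summed 844 to 960.5 CPM in control libraries and 758 to 805 CPM in cKO libraries), the receptor gene Tie1 among them (53.7 to 42.4 CPM, −0.34, SE 0.057); the count was 2 without a TMM factor and 3 with all 15 libraries in the fit. Of 8 smooth muscle markers 4 fell (summed 1728 to 2286 CPM in control libraries and 1517 to 1657 CPM in cKO libraries), among them Myh11, the smooth muscle myosin gene (572 to 457 CPM, −0.32, SE 0.066; adjusted p = 0.143 with all 15 libraries in the fit, where 1 of the 8 was called), and of 8 pericyte markers 4 fell (summed 661 to 689 CPM in control libraries and 598 to 674 CPM in cKO libraries), among them Pdgfrb (54.6 to 43.3 CPM, −0.34, SE 0.060). The summed pericyte levels overlapped between the groups. The part of these shifts in the changes above was not tested.

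Heart muscle markers were present at low levels and uneven. Of 10 markers 5 were lower, with a summed level of 194 to 260.3 CPM in control libraries and 74.7 to 194 CPM in cKO libraries; the number ranged from 2 to 9 when 1 library was left out. Ryr2, the calcium release channel gene of heart muscle, which other tissues express too, fell (15.9, 13.5, 15.7 and 16.05 CPM in controls and 10.4, 8.29, 11.1 and 10.6 CPM in cKO; log2 fold change −0.60, SE 0.095, adjusted p = 0.00141). Skeletal muscle markers were not called, but control 4 had 64.9 CPM in sum against 10.2 to 16.6 in the other controls and 5.93 to 19.4 in cKO. Mb, which muscle also makes, rose, while none of the 20 markers of heart and skeletal muscle was called higher in edgeR (1 skeletal marker was without cKO 3).

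No marker of macrophages (10 tested), lymphocytes (10), mesothelium (8), sympathetic neurons (10) or red blood cells (7) was called by edgeR. At an unadjusted p under 0.05 there were 5 of these 45, and DESeq2 called 1. Leaving out control 4 or cKO 3 brought 3 sympathetic markers past the threshold, leaving out control 4 brought 1 macrophage marker past it, and leaving out control 1 brought 1 lymphocyte marker past it. Of 8 Schwann cell markers 2 rose, among them Pmp22 (75.8 to 113 CPM, 0.57, SE 0.051), and S100b fell (36.4 to 22.97 CPM, −0.66, adjusted p = 0.0163); of 10 fibroblast markers Ly6a fell (50.3 to 39.9 CPM, −0.34, adjusted p = 0.0316). The 2 Schwann cell rises became 1 without control 1, 2 or 3 or cKO 1 or 2, and Ly6a was not called without cKO 1, 3 or 4, without a TMM factor or with all 15 libraries in the fit (adjusted p = 0.0627 to 0.112). Of the thymocyte markers Rag2, Dntt and Ptcra had too few counts to test, and Cd1d1, which other cells also express, rose (93.5 to 107 CPM, 0.19, adjusted p = 0.0168). Without control 1 or cKO 1, or with all 15 libraries in the fit, that gene was not called (adjusted p = 0.0523 to 0.188). Of lung epithelium 5 of 6 markers had too few counts.

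**Figure D4:**
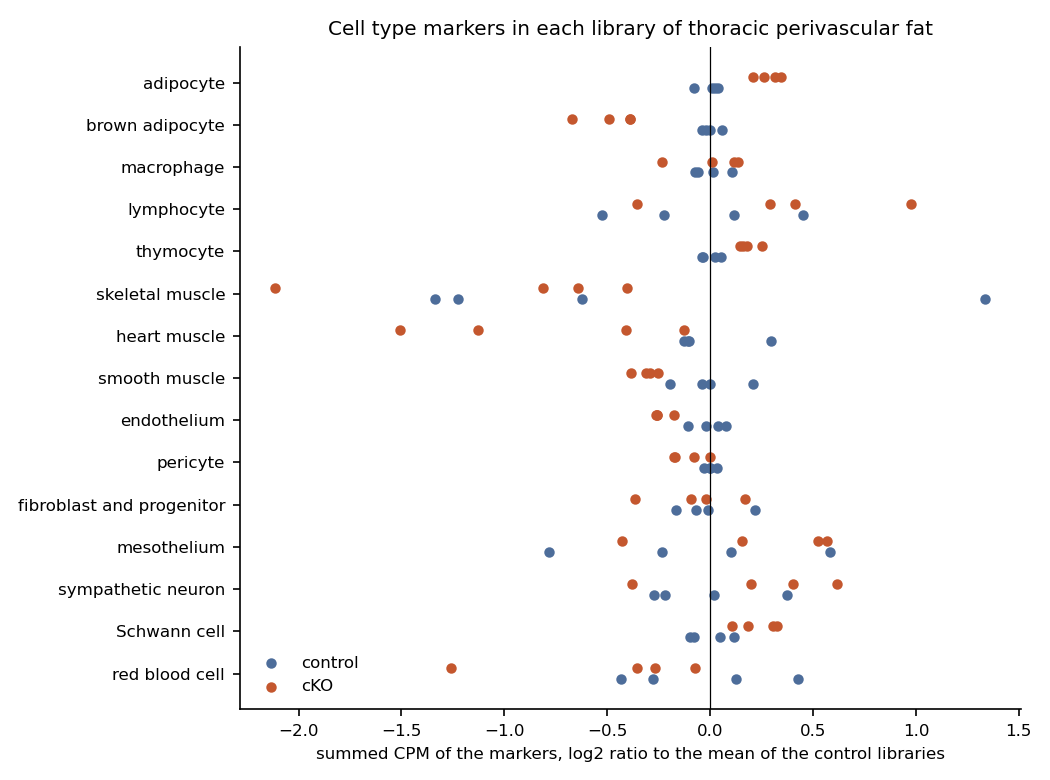
Summed CPM of the tested markers of 15 cell types in each thoracic library, as the log2 ratio to the mean of the 4 controls (blue, control; orange, cKO; 4 points each). Brown adipocyte (mostly Ucp1), endothelial, smooth muscle and, by a narrow margin, heart muscle markers lie lower in all cKO libraries than in any control. Adipocyte and thymocyte markers (the latter mostly Cd1d1) lie higher. The skeletal muscle point far to the right is control 4.

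Whether the thoracic changes differ from those in the abdominal fat was tested as an interaction (the abdominal effect minus the thoracic effect) over all 15 libraries; 154 of 19645 genes passed (0.784%, edgeR's quasi-likelihood test). In the abdominal fat alone 301 genes were called (1.53%). Of the thoracic calls, those with the smallest interaction p were mostly rises that were smaller in the abdomen. Agt rose by 5.44, SE 0.20 in the thorax and 1.07, SE 0.16 in the abdomen in this fit, a difference of −4.38, SE 0.25, adjusted p = 1.45e-07. The values of Aldh3b2 were 3.33, SE 0.12 and 1.26, SE 0.11 (difference −2.07, SE 0.16, adjusted p = 7.10e-06), and those of Apoc2 were 4.24, SE 0.17 and 1.49, SE 0.15 (difference −2.75, SE 0.24, adjusted p = 2.26e-05).

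Mreg and Esrrb had abdominal values near 0. Mreg was at 0.14, SE 0.20 in the abdomen (difference −2.62, SE 0.26, adjusted p = 9.72e-05), and Esrrb at −0.014, SE 0.49 (difference −2.95, SE 0.57, adjusted p = 0.0181). Esrrb did not pass without abdominal control 1, control 4 or cKO 3 (adjusted p = 0.0518 to 0.0729). Ccnd2 rose in both, by 1.997, SE 0.074 and 0.90, SE 0.076 (difference −1.09, SE 0.11, adjusted p = 9.54e-05). B430119L08Rik, an antisense transcript gene over Serpina1c, had the smallest p of all: it stood at 0.251, 0.0894, 0.164 and 0.180 CPM in controls and 16.5, 14.4, 17.2 and 18.3 CPM in cKO in the thoracic fat (log2 fold change 6.59, SE 0.17, adjusted p = 1.33e-08), and the depots differed by −5.22, SE 0.27, adjusted p = 4.29e-08. Since the strand setting of the counting is not given in the sources used here, its reads and those of Serpina1c (0.656 to 1.84 CPM, 1.48, SE 0.20) cannot be told apart where they overlap.

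Of the 32 thermogenic genes tested, 12 passed the interaction test, and in 11 of these the abdominal value was the lower. Over all genes in that test 0.784% passed. Ucp1 was at −0.62, SE 0.54 in the thorax and −4.84, SE 0.72 in the abdomen (difference −4.22, SE 0.85, adjusted p = 0.0256), Cidea at −0.19, SE 0.12 and −1.74, SE 0.14 (difference −1.55, SE 0.18, adjusted p = 0.000303), and Cpn2 at −1.86, SE 0.20 and −4.58, SE 0.32 (difference −2.72, SE 0.38, adjusted p = 0.00160). The abdominal falls of Ucp1, Cidea and Cpn2 were thus the wider ones. Impdh1 was the exception, at −0.99, SE 0.087 and −0.39, SE 0.095 (difference 0.60, SE 0.13, adjusted p = 0.0365), and Bmp8b, which did not fall in the thorax, was at 4.42, SE 0.35 there and 0.13, SE 0.77 in the abdomen (difference −4.29, SE 0.93, adjusted p = 0.0432); both differences were lost without any of several single libraries. The difference of Ucp1 did not pass without abdominal control 3 or cKO 1 or thoracic control 1, 3 or 4 (adjusted p = 0.0555 to 0.0615). Slc40a1 and Pm20d1 fell by more in the thorax (differences 1.29, SE 0.16, adjusted p = 0.000404 and 0.96, SE 0.16, adjusted p = 0.00706). For the respiratory complexes I to V, 1 of the 85 genes passed the interaction test, and the medians by complex were −0.23 to −0.34 in the abdominal fat against −0.30 to −0.44 in the thoracic fat.

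**Figure D5:**
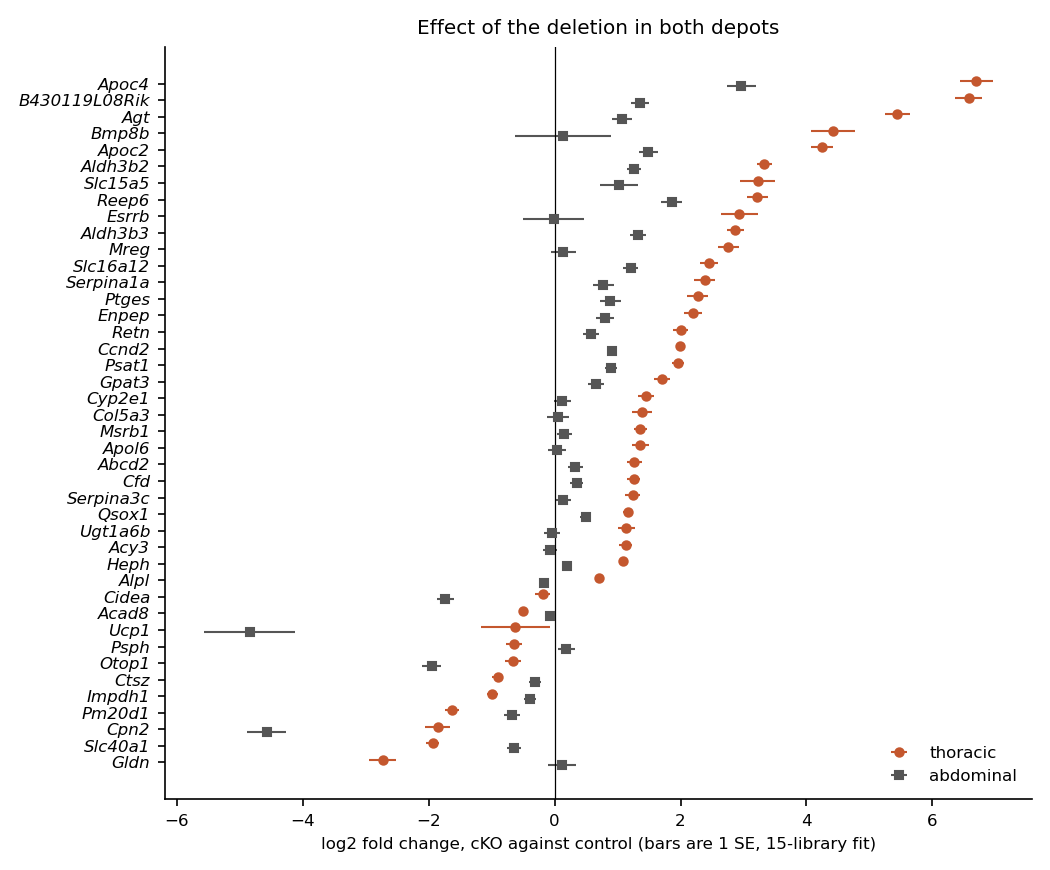
Log2 fold change of cKO against control in thoracic (orange circles) and abdominal (grey squares) perivascular fat for the genes named here that passed the interaction test, from the 15-library fit. Bars are 1 SE, approximated from the test as above and too narrow for genes of few counts. Apoc4, Agt and B430119L08Rik lie farther right in the thorax, and Ucp1 and Cpn2 lie farther left in the abdomen.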

How the data were processed

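Per the labels' protocols, perivascular fat was frozen, total RNA was purified with TRIzol and a column kit, and libraries were made with a stranded mRNA kit. The authors deposited 1 table of raw read counts per gene (43352 Ensembl genes, 15 libraries), with no normalization. Per the submitters' processing notes, Salmon, Subread and DESeq2 1.42.1 were used with mm10, with no role named. How strand was set in the counting, like its aligner and annotation, is not given in the sources used here; 69 of the 162 genes named have an annotated gene on the opposite strand. Columns were matched to samples by their titles.

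The deposited counts were tested with edgeR 4.0.16 (R 4.3.3). Genes of low counts were removed with filterByExpr (minimum count 10), which left 17983 genes and 99.968% of the counts, and libraries were scaled by TMM. The 4 cKO and 4 control libraries of the thoracic fat were fitted alone, with the quasi-likelihood test and Benjamini-Hochberg adjustment over all genes tested (threshold 0.05; common biological coefficient of variation 0.106). The difference between depots was an interaction term over all 15 libraries. The mitochondrial share was compared by an exact permutation test. No 2 libraries of a group agreed within sampling noise (chi-square per degree of freedom 10.5 or more). Tested on simulated data of the thoracic comparison (17983 genes), the procedure recovered 76% of genes changed 1.5-fold and 98% of those changed 2-fold, and 4.92% of its calls were false. The simulation changed 100 genes at each fold, up and down alike, all with a mean log2 CPM of at least 1. It held far fewer changed genes than were called here and no shift in composition. These rates need not hold for the real comparison or for genes of low counts.

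The genes named are Prdm16, the 12 largest rises and 12 largest falls among called protein-coding genes with a mean log2 CPM of at least 1 and no overlap between groups, the 10 largest gains and 10 largest losses in CPM (mitochondrial genome left out), runs of called neighbours with a log2 change of at least 1, up to 4 members of each list with the smallest p, a short panel of fat genes, the 6 called genes with the smallest interaction p, and, where a count was 5 or fewer, the genes counted. The members and lists were chosen with earlier results of these data known. A few genes that this rule takes are not reported here. Acot2, Atxn1 and Aph1a are named only as paralog or overlapping genes. Positions are from GENCODE M21 (GRCm38), which held 42468 of the gene identifiers; sequences are from RefSeq (GRCm38.p6). Alternatives tried were all 15 libraries in 1 fit, a replicate block, DESeq2 1.42.0, limma 3.58.1 (voom with library weights), RLE scaling, no TMM factor, no mitochondrial genome, 2 other filters and leaving out each library.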

Additional observations from a re-analysis of the deposited data

Results flagged for a closer look

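Single libraries stood far from the other 3 of their group in 17 of 326 groups examined (2 groups for each gene named and the mitochondrial share), where the gap to the nearest library, divided by the range of the group, exceeded the 95% critical value of Dixon's test. Chance gives such a gap in about 1 of 20 groups. A library was above the others in cKO 1 for Cd1d1 (112 CPM), Cyp51 (108 CPM) and Scd1 (52689 CPM), in control 3 for Cenpf (0.347 CPM), Chpt1 (963 CPM) and Slc16a12 (0.713 CPM), in cKO 3 for Plin2 (854 CPM) and Zfp980 (0.401 CPM), and in control 2 for Psph (23.9 CPM). A library was below the others in control 3 for Aldh3b3 (0.603 CPM), Pex6 (69.1 CPM) and Ugt1a6a (0.0914 CPM), in control 2 for Car3 (2635 CPM), Fabp4 (5161 CPM) and Ryr2 (13.5 CPM), in cKO 2 for Fabp4 (6766 CPM), and in cKO 1 for Sc5d (145 CPM). Slc16a12 and Aldh3b3 have few counts in controls. In none of these genes did the far library cross into the values of the other genotype.

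The abdominal effect minus the thoracic effect passed the interaction test for 42 of the 162 genes named. For the genes described with their depots above, the log2 differences were Agt (−4.38), Aldh3b2 (−2.07), Apoc2 (−2.75), B430119L08Rik (−5.22), Ccnd2 (−1.09), Cidea (−1.55), Cpn2 (−2.72), Esrrb (−2.95), Mreg (−2.62), Pm20d1 (0.96), Slc40a1 (1.29) and Ucp1 (−4.22). Among further genes with a thoracic log2 fold change above 0, they were Abcd2 (−0.94), Acy3 (−1.20), Aldh3b3 (−1.54), Alpl (−0.88), Apoc4 (−3.73), Apol6 (−1.33), Bmp8b (−4.29), Cfd (−0.91), Col5a3 (−1.33), Cyp2e1 (−1.32), Enpep (−1.40), Gpat3 (−1.05), Heph (−0.88), Msrb1 (−1.21), Psat1 (−1.07), Ptges (−1.39), Qsox1 (−0.67), Reep6 (−1.36), Retn (−1.42), Serpina1a (−1.61), Serpina3c (−1.11), Slc15a5 (−2.20), Slc16a12 (−1.25) and Ugt1a6b (−1.18). Among those with a thoracic value below 0, they were Acad8 (0.43), Ctsz (0.59), Gldn (2.85), Impdh1 (0.60), Otop1 (−1.30) and Psph (0.83). Alpl, the tissue-nonspecific alkaline phosphatase gene, had an abdominal log2 fold change of −0.17, SE 0.068 beside its thoracic rise, and Gldn one of 0.12, SE 0.22 beside its thoracic fall. The differences of Bmp8b, Impdh1, Acad8, Psph and Ctsz have adjusted p of 0.0354 to 0.0432 and were lost without any of several single libraries (adjusted p up to 0.158), and that of Slc15a5 was lost without abdominal cKO 3 (adjusted p = 0.0569).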

How the results depend on the processing

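Of 3726 genes called, 2298 were shared with the 2367 called when all 15 libraries entered 1 fit (1069 higher, 45.2% of the calls), where the spread is estimated over both depots. Without a TMM factor 1011 genes were lower. Leaving out 1 library gave 2863 to 3563 calls (1634 to 2071 higher and 1229 to 1532 lower), a difference in the mitochondrial share of −5.207 to −3.49 points, and 114 to 189 genes in the interaction test, which had 154 genes in edgeR and 350 in DESeq2; the cause of the last difference was not tested. Library numbers are shared between the groups but were not shown to pair them: same-numbered thoracic libraries had correlations of 0.0608, 0.107, 0.147 and 0.0556 in their deviations from the group means, and control 4 correlated best with cKO 1 (0.108). A fit with the replicate block called 4710 genes, 3679 of them shared with the fit without it.

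Of the 162 genes named, 141 stayed on 1 side of the threshold under every alternative run and 0 changed sign while called; 18 calls were lost and 3 genes (Cidea, Ebf2 and Lep) passed under at least 1. Of the calls named, 1 was lost with the replicate block (Bub1, adjusted p = 0.0585). Ebf2 passed only with the block (adjusted p = 0.0389). In simulated data 76% of 1.5-fold changes were recovered, so a gene that did not pass is not shown to be without a change.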

Other observations

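Some of the genes that rose by at least 1 on the log2 scale lie next to each other. Among neighbouring protein-coding genes tested, there were 14 such runs with 30 genes, all higher in cKO, and none lower, in edgeR. Over all genes tested, 264 were called with a rise of at least 2-fold (1.47%) and 116 with such a fall (0.645%). Runs of falls thus had fewer genes to form from. How many runs chance gives was not computed, and low levels and shared reads limit several of them. On chromosome 12, members of the serpin family of protease inhibitors formed 3 runs. Serpina1a rose (0.542 to 2.87 CPM, 2.40, SE 0.17) beside Serpina1c. Serpina3b (0.329 to 1.73 CPM, 2.40, SE 0.34) rose with Serpina3c, which had the most counts of these (14.9 to 35.8 CPM, 1.26, SE 0.068). Serpina3j (0.163 to 0.687 CPM, 2.05, SE 0.30) rose next to Serpina3k. Serpina3m (1.41, SE 0.34) rose too, but its annotated span starts at the same base as Serpina3k and contains it. These genes are close copies, so how the reads were split among them is uncertain.

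Msrb1, which encodes a selenoprotein that repairs oxidised methionine, stood at 50.6, 53.2, 51.5 and 49.8 CPM in controls and 142, 137, 137 and 118 CPM in cKO (log2 fold change 1.38, SE 0.061, adjusted p = 2.64e-07), with no overlap. Its neighbour Rpl3l, a ribosomal protein gene mainly of muscle, rose from 0.375 to 1.28 CPM (1.78, SE 0.30). Kcnk2, a potassium channel gene, rose from 1.67 to 4.30 CPM (1.37, SE 0.14) beside Cenpf, a kinetochore gene at under 1 CPM. The neurotensin receptor gene Ntsr2 (0.725 to 2.63 CPM, 1.86, SE 0.29) and Greb1 (0.107 to 0.731 CPM, 2.73, SE 0.50), a gene regulated by estrogen receptor in other tissues, rose together. Elane lies next to Cfd and rose at far lower counts (0.123 to 0.429 CPM, 1.81, SE 0.49). Its groups overlapped (0.252 CPM in control 4 and 0.244 CPM in cKO 1). Slc22a14 next to Acaa1b (0.119 to 0.467 CPM, 1.94, SE 0.28) and Hsf3 next to Heph (0.0828 to 0.363 CPM, 2.09, SE 0.36) also rose at far lower counts. The other 2 runs were Ugt1a6a with Ugt1a6b, which share exons, and the zinc finger genes Zfp980 with Zfp600, each under 3 CPM. The call of Elane was lost without control 1, 2 or 3 or cKO 2 or 3 (adjusted p = 0.0584 to 0.0627), that of Zfp980 without any library but control 3, control 4 or cKO 2 (adjusted p = 0.0513 to 0.0875), and that of Zfp600 without any but control 4 or cKO 1, or with DESeq2 (adjusted p = 0.0609 to 0.109). Zfp980 and Zfp600 were lost with all 15 libraries in the fit (adjusted p = 0.0847 and 0.0864).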
